A study of Caenorhabditis elegans with 20 samples.

Results

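The contractile filaments of Caenorhabditis elegans muscle were followed through 9 genes, chosen by name as rows of the deposited gene count table: the myosin heavy chain genes unc-54, myo-3, myo-1 and myo-2, the paramyosin gene unc-15, the regulatory light chain genes mlc-1 and mlc-2, the actin gene act-4 and the tropomyosin gene lev-11. They are 9 of the 28301 genes in the table, and all 9 passed the filter on low counts that left 13795 genes for testing. RNA came from whole animals at the L4 stage, the last larval stage, grown in liquid culture from synchronized L1 larvae. The 4 groups were wild type in DMSO, wild type in F17, nhr-131 mutant in DMSO and nhr-131 mutant in F17, with 5 independent biological replicates each; the columns of the count table name the wild type strain N2. F17 is a compound known here by its code name and was given at 2.5 µM for 4 h before harvest; DMSO, the solvent control, was given at 0.1% for the same time. The labels name the mutated gene, a nuclear hormone receptor gene, but no allele. The design asks whether F17 changed transcript levels, and whether it did so differently in the nhr-131 mutant.

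In nematode muscle, as in other animals, force comes from thick filaments of myosin sliding along thin filaments of actin. Each myosin molecule pairs heavy chains, which carry the motor, with light chains; in worms the thick filament is built around a core of paramyosin, and tropomyosin lies along actin and, with the troponin complex, makes contraction depend on calcium. Body wall muscle, which moves the animal, uses the heavy chains encoded by unc-54 (myosin B, the major form) and myo-3 (myosin A, at the middle of the filament), whereas the pharynx, the feeding pump, uses those encoded by myo-1 and myo-2. RNA from whole animals mixes all tissues, so fewer muscle cells and less RNA per muscle cell cannot be told apart in any value below.

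Library totals ranged from 12836432 to 26908383 counts, and ribosomal RNA genes took 2.24% to 27.5% of them. Levels are given as CPM, the counts of a gene per 1000000 counts of the scaled library size. The nhr-131 transcript was 7.90 ± 0.746 CPM (SD, n = 5) in wild type DMSO and 6.56 ± 0.543 (n = 5) in wild type F17, against 0.118 ± 0.0894 (n = 5) and 0.139 ± 0.0986 (n = 5) in the mutant groups, where a library held 0 to 4 counts. Of the variation within groups, 53.9% lay along 1 principal component, on which 6 libraries (a and c of wild type DMSO, a and d of wild type F17, c of nhr-131 DMSO and c of nhr-131 F17) scored 54.6 to 105.86 and the other 14 scored -63.71 to -1.27. In these 6 libraries a score of 7 genes known for adult expression (vit-1 to vit-6, which encode yolk proteins, and the collagen gene col-19) lay between -1.612 and -1.116 SD units, below the -0.037 to 1.204 of the other 14. Both wild type groups hold 2 of the 6 libraries and both mutant groups hold 1.

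No filament gene was called changed in any comparison (edgeR quasi-likelihood test, adjusted p under 0.05 over all 13795 genes). The pharyngeal heavy chain genes myo-1 and myo-2 varied over a 16.3-fold and a 16.8-fold range among the 20 libraries, and the other 7 genes, of body wall or general muscle use, over 1.44-fold to 2.12-fold. For F17 in wild type, 0 of 9 genes were called and 1 passed at an unadjusted p under 0.05, where 0.928% of all tested genes were called and 7.60% passed unadjusted. For F17 in the mutant the count was 0 of 9, with 0 at an unadjusted p under 0.05, against 0.478% of all genes called and 424 of the 13795 genes unadjusted. For the mutant against wild type it was 0 of 9 in DMSO (0.0290% of all genes called, 575 genes unadjusted) and 0 of 9 in F17 (1.28% called, 2065 genes unadjusted), with 0 of 9 unadjusted in both. The difference of the F17 effects between genotypes and the mean F17 effect over both genotypes also gave 0 of 9 called and 0 unadjusted. Of all genes, 0.246% were called and 441 genes passed unadjusted for the difference, and 1.03% and 870 genes for the mean. DESeq2 and limma-voom likewise called 0 of 9 in all 6 comparisons.

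**Figure D1:**
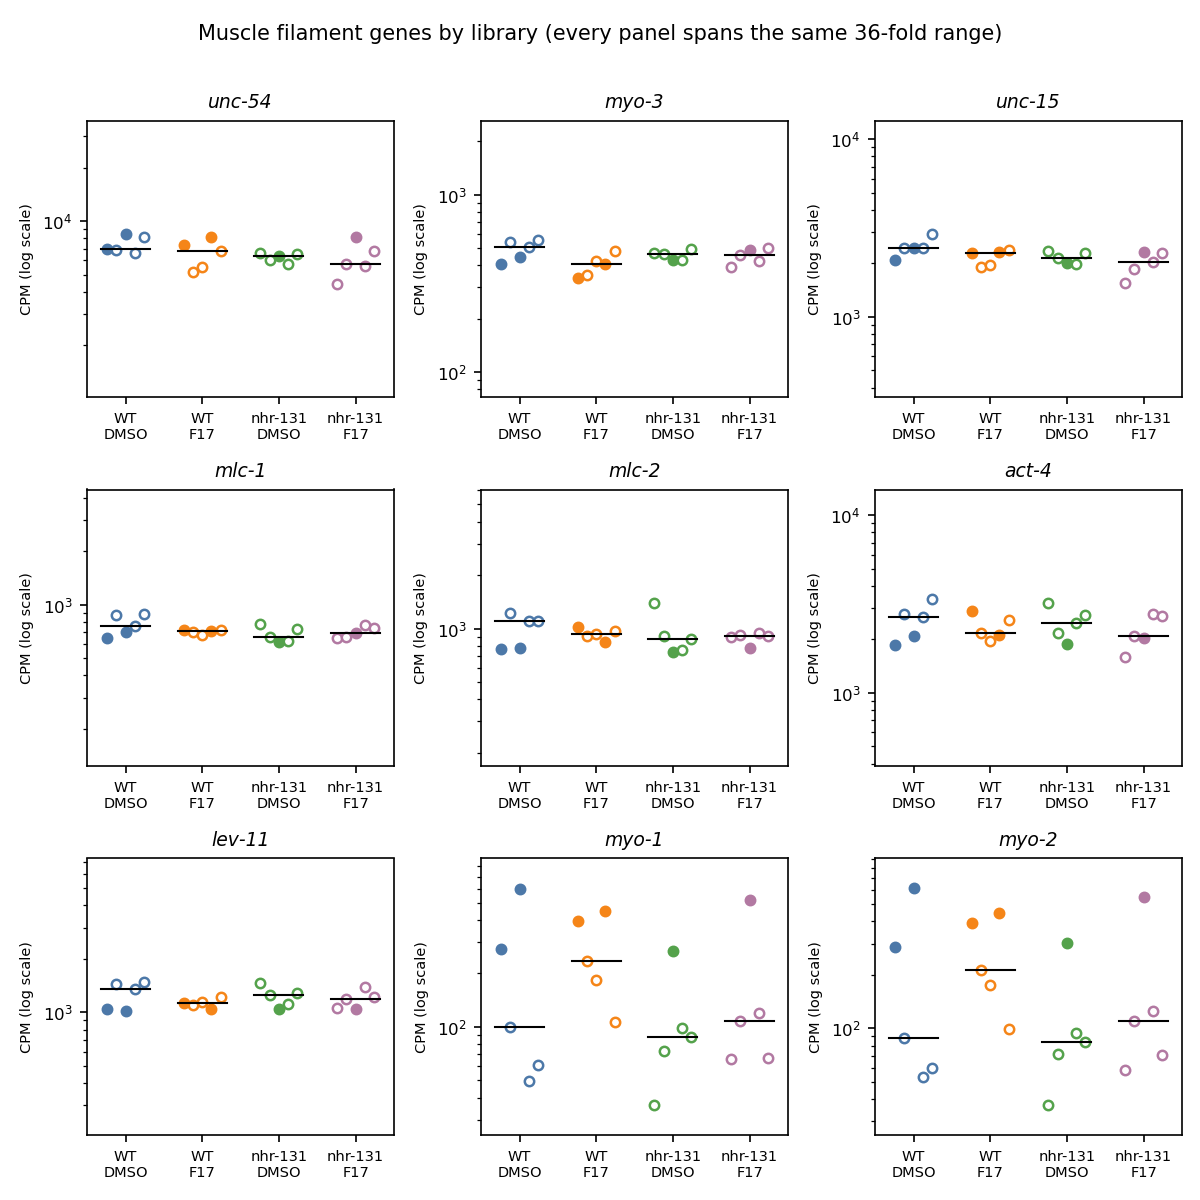
Level of each filament gene (CPM, log axis) in each library of the 4 groups (WT, wild type); filled points are the 6 libraries that stood apart and black bars are group medians. Every panel spans the same 36-fold range, so the flat panels of unc-54 to lev-11 can be set beside the 16.3-fold and 16.8-fold spread of myo-1 and myo-2.

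Among the thick filament genes of body wall muscle, unc-54 had the most counts. Its level in libraries a to e was 6992, 6831, 8471, 6648 and 8115 CPM in wild type DMSO and 7335, 5148, 5510, 8100 and 6749 CPM in wild type F17. In the mutant it was 6622, 6026, 6344, 5732 and 6547 CPM in DMSO and 4443, 5707, 8182, 5559 and 6804 CPM in F17. The DMSO groups did not overlap, since the lowest wild type library (6648 CPM) lay just above the highest mutant library (6622 CPM); 0.384% of all tested genes had a mutant group wholly below wild type in DMSO. The group means were 6254 ± 372 CPM in mutant DMSO (SD, n = 5) and 7411 ± 824 CPM in wild type DMSO (n = 5), a log2 fold change of -0.25 (SE 0.156, 95% interval -0.57 to 0.08), with an edgeR adjusted p of 0.985. With DESeq2 size factors in place of TMM the DMSO groups overlapped, the lowest wild type library being at 6630 and the highest mutant library at 6666. F17 against DMSO gave overlapping groups in both genotypes, with log2 fold changes of -0.17 (95% interval -0.50 to 0.15) in wild type and -0.03 (-0.35 to 0.30) in the mutant.

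The other body wall heavy chain gene, myo-3, was the filament gene with the lowest p for F17 in wild type. It stood at 406, 537, 443, 504 and 558 CPM in wild type DMSO and at 339, 353, 424, 405 and 478 CPM in wild type F17. The groups overlapped, and 3 of the 5 F17 libraries (339, 353 and 405 CPM) lay below the lowest DMSO library (406 CPM). The means were 400 ± 55.9 CPM in F17 (SD, n = 5) and 490 ± 63.9 CPM in DMSO (n = 5), a log2 fold change of -0.29 (SE 0.114, 95% interval -0.53 to -0.05); the unadjusted p of 0.0194 became 0.513 after edgeR's Benjamini-Hochberg adjustment, so the difference did not pass. In the mutant the levels were 470, 464, 430, 430 and 493 CPM in DMSO and 393, 454, 490, 421 and 497 CPM in F17. These mutant groups differed by -0.02 on the log2 scale (95% interval -0.26 to 0.22). The test of the difference of the F17 effects between genotypes gave 0.27 (95% interval -0.07 to 0.61) with an edgeR adjusted p of 0.9998.

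Paramyosin, the core protein of the thick filament, is encoded by unc-15. Its levels were 2083, 2456, 2427, 2442 and 2925 CPM in wild type DMSO, 2300, 1906, 1962, 2311 and 2394 CPM in wild type F17, 2361, 2141, 2007, 1997 and 2280 CPM in mutant DMSO, and 1543, 1851, 2320, 2027 and 2281 CPM in mutant F17. All 4 groups overlapped, and the lowest value came from library a of mutant F17, which also held the lowest unc-54 value. The F17 effect was -0.18 (95% interval -0.44 to 0.08) in wild type and -0.11 (-0.37 to 0.16) in the mutant on the log2 scale. The mutant differed from wild type by -0.19 (-0.45 to 0.07) in DMSO and by -0.12 (-0.38 to 0.14) in F17.

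The regulatory light chains bind the neck of the myosin head, and mlc-1 and mlc-2 encode near-identical forms. Their genes are neighbours on chromosome X, transcribed away from each other with 2623 bases and no other protein-coding gene between them in the Ensembl annotation. The mlc-1 gene varied least of the 9, with 647 to 888 CPM in wild type DMSO, 674 to 717 in wild type F17, 618 to 782 in mutant DMSO and 651 to 765 in mutant F17, all overlapping. Its F17 effect was -0.13 (95% interval -0.35 to 0.09) in wild type and 0.04 (-0.18 to 0.26) in the mutant. The level of mlc-2 was 991 ± 206 CPM in wild type DMSO, 932 ± 66.9 in wild type F17, 933 ± 267 in mutant DMSO and 889 ± 67.0 in mutant F17 (SD, n = 5 each). Library a of mutant DMSO, at 1391 CPM, stood above the 733 to 911 CPM of its group. Reads that fit both copies could have been lost or assigned to either, since the counting of such reads is not given in the sources used here, and both genes overlap exons of a gene on the opposite strand (slc-17.1 for mlc-1, 6866 counts over all libraries; C36E6.2 for mlc-2, 4353 counts). Those totals compare with 270732 counts for mlc-1 and 349887 for mlc-2.

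On the thin filament side, act-4 encodes one of the worm's muscle actins. Its levels were 1871, 2764, 2089, 2678 and 3387 CPM in wild type DMSO, 2902, 2181, 1951, 2116 and 2567 CPM in wild type F17, 3193, 2168, 1886, 2475 and 2745 CPM in mutant DMSO, and 1596, 2095, 2037, 2779 and 2721 CPM in mutant F17. It was the widest of the steady genes, with a 2.12-fold range over the 20 libraries, and all groups overlapped. F17 differed from DMSO by -0.13 (95% interval -0.52 to 0.27) in wild type and -0.15 (-0.55 to 0.25) in the mutant on the log2 scale. The actin genes act-1, act-2 and act-3 are near-identical in coding sequence to act-4, so the split of reads among them is uncertain. The gene also overlaps exons of M03F4.6 on the opposite strand, which had 10694 counts over all libraries. Of those 3, act-2 had an F17 log2 fold change of 0.40 in wild type (SE 0.223, edgeR adjusted p 0.763), opposite in sign to act-1 (-0.25) and act-3 (-0.27), and none passed.

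Tropomyosin, from lev-11, was 1042, 1446, 1016, 1361 and 1475 CPM in wild type DMSO and 1130, 1098, 1140, 1049 and 1224 CPM in wild type F17. In the mutant it was 1469, 1257, 1038, 1113 and 1285 CPM in DMSO and 1065, 1188, 1051, 1388 and 1213 CPM in F17. The lowest DMSO values of both genotypes came from libraries a and c of wild type and c of the mutant, all among the 6 that stood apart. The F17 effect was -0.17 (95% interval -0.44 to 0.10) in wild type and -0.06 (-0.33 to 0.21) in the mutant. The gene makes several tropomyosin isoforms, which the gene-level counts do not separate.

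The pharyngeal heavy chain genes behaved differently from all of these. The myo-1 level was 274, 100, 597, 49.7 and 61.0 CPM in wild type DMSO and 395, 234, 184, 450 and 106 CPM in wild type F17. In the mutant it was 36.5, 73.5, 267, 98.4 and 87.3 CPM in DMSO and 65.9, 108, 516, 120 and 66.6 CPM in F17. Within each group the highest values were those of the libraries that stood apart, which held 267 to 597 CPM of myo-1 while the other 14 held 36.5 to 234 CPM. The myo-2 levels in libraries a to e followed them closely, at 287, 88.2, 616, 52.9 and 59.5 CPM in wild type DMSO and 391, 213, 176, 445 and 99.1 CPM in wild type F17. In the mutant, myo-2 stood at 36.8, 72.1, 301, 93.8 and 84.3 CPM in DMSO and 58.6, 110, 547, 126 and 70.7 CPM in F17. The 6 libraries held 287 to 616 CPM of myo-2 and the other 14 held 36.8 to 213 CPM.

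This spread sets what could be seen of F17 in the pharyngeal genes. For myo-1 the F17 log2 fold change was 0.34 in wild type (SE 0.714, 95% interval -1.16 to 1.84), from 216 ± 231 CPM in DMSO (SD, n = 5) to 274 ± 144 CPM (n = 5), with an edgeR adjusted p of 0.961. For myo-2 it was 0.26 (SE 0.745, 95% interval -1.30 to 1.82), with an edgeR adjusted p of 0.974. In linear terms, the intervals of this pair reached from 0.407-fold to 3.57-fold. The intervals of the other 7 genes for the same comparison lay within 0.692-fold and 1.21-fold. Without the 6 libraries, 3 DMSO and 3 F17 libraries remained in wild type and the F17 log2 fold changes rose to 1.31 for myo-1 and 1.28 for myo-2, still short of the threshold (edgeR adjusted p 0.0746 for myo-2, the lowest of any filament gene, comparison and setting). In that setting 6.71% of all genes were called. With the stage score as a covariate over all libraries there was no such rise. The values were then 0.37 for myo-1 (edgeR adjusted p 0.675) and 0.30 for myo-2 (edgeR adjusted p 0.732). In the mutant the F17 log2 fold changes over all libraries were 0.64 (95% interval -0.86 to 2.14) for myo-1 and 0.63 (-0.94 to 2.20) for myo-2. Without library c of mutant F17 alone they were -0.32 and -0.37, so their direction there rests on that library. The mutant was at -0.94 (-2.45 to 0.57) for myo-1 and -0.91 (-2.48 to 0.67) for myo-2 relative to wild type in DMSO, and these values were 0.07 and 0.10 without the 6 libraries. In F17 the mutant was at -0.64 (-2.14 to 0.86) for myo-1 and -0.54 (-2.10 to 1.03) for myo-2. Without the 6 libraries these were -0.95 (edgeR unadjusted p 0.0274, adjusted p 0.148) and -0.84 (unadjusted p 0.0407, adjusted p 0.184), and with the stage score as a covariate 0.03 and 0.18. Among the F17 libraries left without the 6, the stage score was 0.516 to 1.204 in the mutant and -0.037 to 0.316 in wild type. Genotype and stage score therefore cannot be told apart in that setting.

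**Figure D2:**
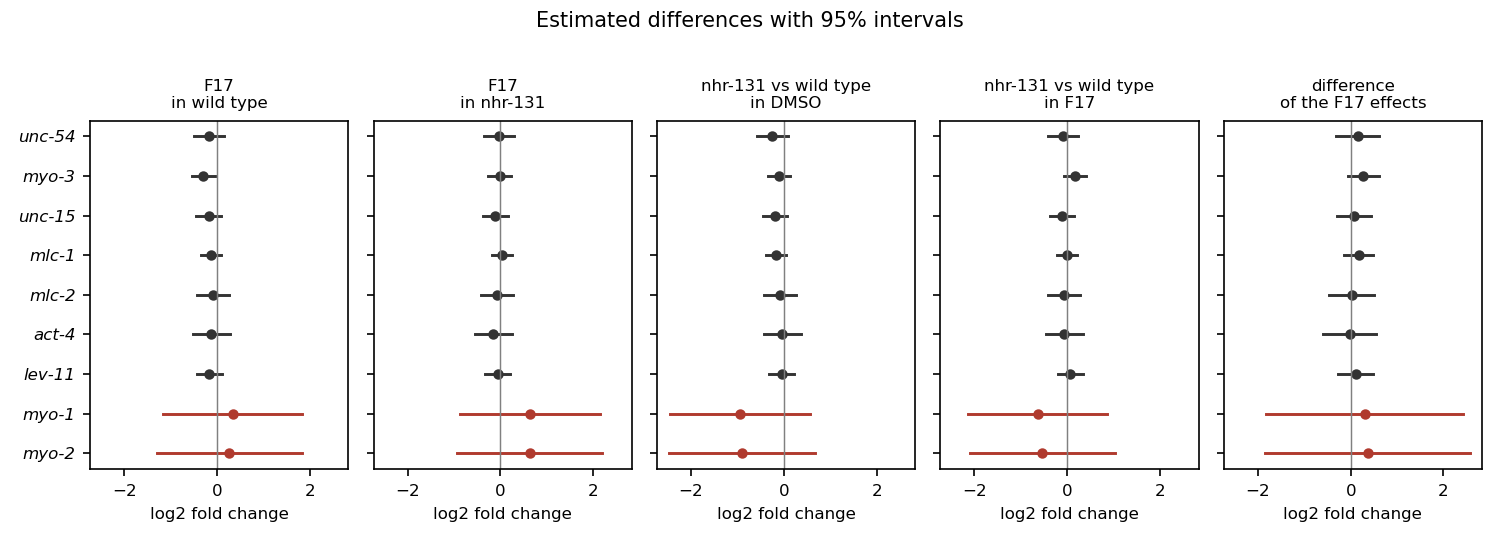
Log2 fold change (points) with 95% intervals (lines) of the 9 filament genes in 5 comparisons over 20 libraries, from the edgeR fit, with the pharyngeal heavy chains in red. For F17 in wild type, the black intervals lie between -0.53 and 0.27, and the red ones reach from -1.30 to 1.84.

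For F17 in wild type, 7 of 9 were negative with a median log2 fold change of -0.13, where 51.7% of all tested genes were negative and their median was -0.01. For F17 in the mutant, 6 of 9 were negative (median -0.03), against 52% of all tested genes (median -0.01). The mutant had 9 of 9 estimates below wild type in DMSO (median -0.18; of all tested genes 50.8%, median -0.01) and 7 of 9 in F17 (median -0.07; of all tested genes 53.3%, median -0.03). These comparisons share their control libraries, so their signs are not independent of each other. Within a comparison the genes also varied together (r of 0.998 for myo-1 with myo-2 and 0.803 for unc-54 with unc-15). The 9 signs are therefore not 9 separate observations.

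Levels between genes were set side by side per kilobase of annotated exon. Over all 20 libraries act-4 came first with 1505 CPM per kb, followed by mlc-2 with 1461, unc-54 with 1063, unc-15 with 643, mlc-1 with 619 and lev-11 with 505. Well below came myo-3 with 73.6 CPM per kb, then myo-2 with 31.0 and myo-1 with 30.1. The gap between lev-11 and myo-3 was the only one between neighbours in this order whose ranges over libraries did not overlap. Still, unc-54 was above unc-15, and mlc-1 above lev-11, in 20 of 20 libraries. By contrast act-4 was above mlc-2 in 11 of 20 libraries and myo-2 above myo-1 in 12 of 20, so the order of these neighbours was not resolved. In 4 of the 20 libraries myo-2 exceeded myo-3 per kb, against 16 in the stated order. Together the 9 genes took 1.64% ± 0.337 of all counts in wild type DMSO, 1.55% ± 0.228 in wild type F17, 1.39% ± 0.237 in mutant DMSO and 1.44% ± 0.430 in mutant F17 (SD, n = 5 each).

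Ratios of filament genes within a library do not depend on how libraries were scaled. Per kb, the myo-1 to myo-2 ratio stayed between 0.87 and 1.12 in all 20 libraries, although the levels of both genes spanned 16.3-fold or more. The body wall ratio of unc-54 to myo-3 was 15.1 ± 2.69 in wild type DMSO, 16.4 ± 3.80 in wild type F17, 13.5 ± 0.708 in mutant DMSO and 13.3 ± 1.97 in mutant F17 (SD, n = 5 each). It was 14.5 to 21.3 in the 6 libraries that stood apart and 11.1 to 14.4 in the other 14. The unc-15 to unc-54 ratio, paramyosin relative to the main heavy chain, was 0.514 to 0.573 in the 6 libraries and 0.588 to 0.671 in the other 14, again without overlap. The 6 libraries lie at 1 end of the component that held 53.9% of the variation within groups. How many ratios of other genes separate them in this way was not counted, so whether the separation is particular to filament genes was not tested. The summed body wall heavy chains exceeded the pharyngeal pair 7.58-fold to 13.6-fold in the 6 libraries and 12.7-fold to 99.8-fold in the others. None of 5 ratios passed in 4 comparisons each. Over the 20 two-sided exact permutation tests the lowest unadjusted p was 0.151 and the lowest Benjamini-Hochberg adjusted p was 0.889. With 5 libraries against 5 the lowest unadjusted p that can be reached is 0.00794. After adjustment over 20 tests, 1 test alone at that value would not come under 0.05. A difference confined to 1 test therefore could not have been called, however large.

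**Figure D3:**
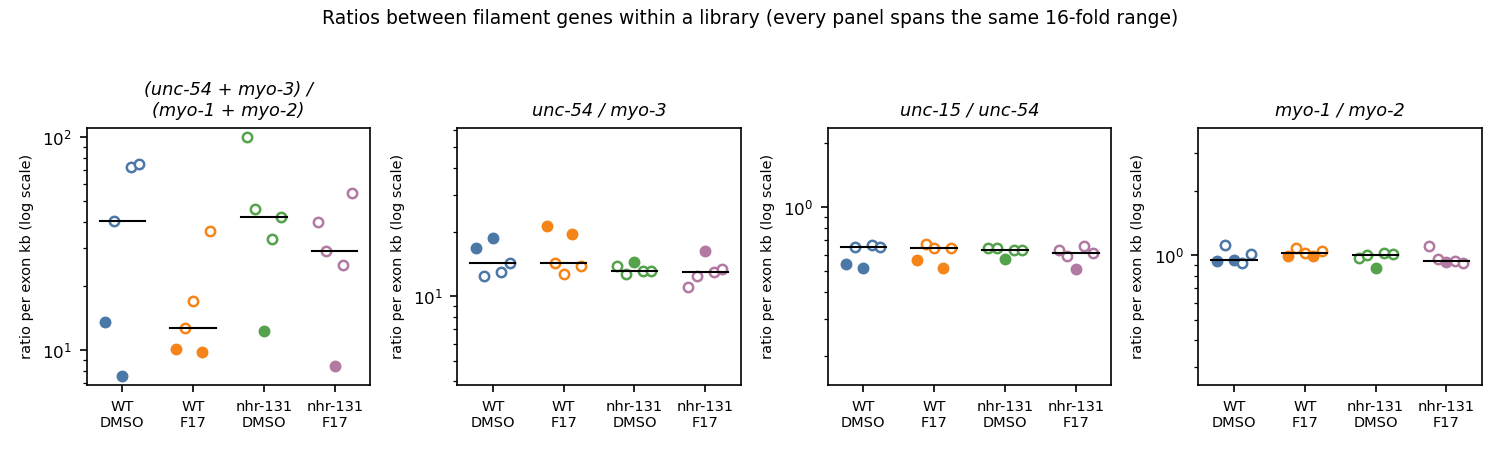
Ratios of filament genes per exon kb in each library (log axes, each panel spanning 16-fold; filled points are the 6 libraries that stood apart, bars are group medians). The filled points lie at 14.5 to 21.3 for unc-54 to myo-3 and at 0.514 to 0.573 for unc-15 to unc-54, outside the ranges of the open points, while myo-1 to myo-2 stays between 0.87 and 1.12.

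The genes also differed in which ones varied together, described here by Pearson's r of log2 CPM after subtracting group means, over 20 libraries that differ in depth and in the stage score. The deviations of myo-1 and myo-2 had an r of 0.998, and 0.986 among the 14 libraries left without the 6. The pairs among mlc-1, mlc-2, lev-11 and act-4 had r of 0.678 to 0.877, and 0.378 (mlc-2 with act-4) to 0.842 in the 14. The paramyosin gene unc-15 had r of 0.738 with act-4 and 0.679 with mlc-1, within that range, but 0.475 with lev-11 and 0.330 with mlc-2, below it. It had r of 0.803 with unc-54 (0.972 in the 14). Against myo-1, lev-11 had an r of -0.763 and mlc-2 of -0.738. Among the 14 libraries these values were -0.255 and -0.553, so the opposite movement of lev-11 and myo-1 was weaker among them. The SD within groups on the log2 scale was 1.18 for myo-1 and 1.22 for myo-2 and 0.14 to 0.30 for the other 7; 7.44% and 6.35% of all tested genes had a larger SD than myo-1 and myo-2.

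The troponin complex, which sits on the thin filament and was not among the chosen genes, held genes that moved with the pharyngeal heavy chains and genes that moved against them. The pharyngeal troponin genes tni-4, tnc-2 and tnt-4, for the inhibitory, calcium-binding and tropomyosin-binding subunits, had r of 0.99, 0.96 and 0.98 with the mean of myo-1 and myo-2. Their levels were 29.4 to 53.0, 10.5 to 21.3 and 34.3 to 71.4 CPM in the 6 libraries, and 4.33 to 29, 1.09 to 8.01 and 5.08 to 28.8 CPM in the other 14. The troponin T gene tnt-3 (r = 0.94) and the troponin I gene tni-3 (r = 0.89) went the same way over a smaller range, at 141 to 183 and 43.5 to 73.4 CPM in the 6 libraries and 83.1 to 115 and 23 to 53.2 CPM in the other 14. The troponin C gene of body wall muscle, pat-10, had an r of -0.86 and lay at 572 to 788 CPM in the 6 libraries and 671 to 1146 CPM in the others. Of the 10 troponin genes 5 had r over 0.5 and 5 had r under -0.5; 30.3% and 29.5% of all tested genes did so, so strong correlation with the pharyngeal heavy chains was common across the transcriptome.

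**Figure D4:**
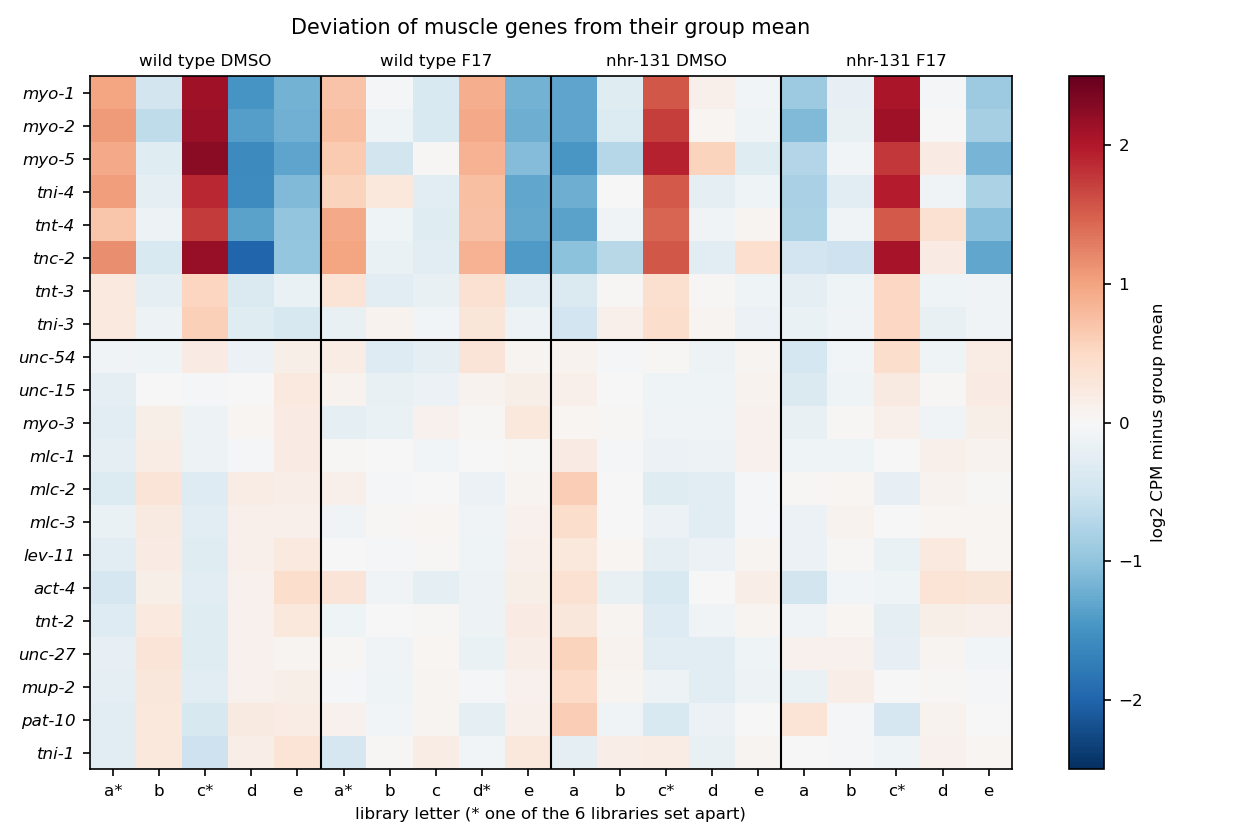
Log2 CPM minus the group mean (colour) of filament and related genes (rows) in 20 libraries (columns; stars mark the 6 that stood apart). Of the rows above the line, myo-1, myo-2 and the troponin genes tni-4, tnt-4 and tnc-2 are red in every starred column. The row of tni-3, also above the line, is at -0.19 in library a of wild type F17. Within-group SDs are 1.18 for myo-1 and 0.14 to 0.30 for unc-54, unc-15, myo-3, mlc-1, mlc-2, lev-11 and act-4.

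The rise of the pharyngeal genes in the 6 libraries came with differences in other tissues' markers. The summed level of 5 pharyngeal muscle markers (myo-1, myo-2, tnc-2, tni-4 and ceh-22) was 601 to 1289 CPM in the 6 libraries and 79.8 to 484 CPM in the other 14. That of 8 germline markers was 590 to 942 against 91.7 to 644 CPM, that of 8 hypodermis markers 777 to 1462 against 2512 to 3982 CPM, that of 7 intestine markers 7989 to 12212 against 9810 to 20647 CPM, and that of 8 neuron markers 564 to 638 against 424 to 711 CPM. No marker of these lists was at 0 in all libraries. A summed level follows the most abundant genes of its list, and not all genes of a list moved alike. In the pharyngeal list the most abundant genes by far are myo-1 and myo-2 themselves. The pharyngeal sum therefore mostly restates their levels and is not a separate observation. Of the 8 hypodermis markers, 5 had r under -0.5 with the mean of myo-1 and myo-2 and 1 had r over 0.5. Of the 7 intestine markers, 5 had r under -0.5 and 0 had r over 0.5. Among all tested genes, 29.5% had r under -0.5. The hypodermis list holds col-19, which is also in the stage score. The part of tissue make-up or stage in the levels of myo-1 and myo-2 was not tested.

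By the rule used to find similar genes, 8 genes outside the 9 had deviations most like the mean of all 9, with r of 0.926 to 0.941 over 20 libraries. They were F13H6.4, del-6, best-17, F47B7.7, nas-9, R05H10.1, egl-27 and C34F11.8. Among them del-6 stood at 160 to 370 CPM in the 6 libraries and at 4.59 to 94.2 CPM in the other 14. The mean of all 9 mostly follows myo-1 and myo-2, whose within-group SDs were 1.18 and 1.22 against 0.14 to 0.30 for the other 7. Likeness to it is therefore mostly likeness to that pair. Likeness was also taken to the pharyngeal pair and to the other 7 genes separately, a choice made after the data were seen. The genes most like myo-1 and myo-2 were C53C9.2 (r = 0.989), tni-4 (0.987), tnt-4 (0.977) and myo-5 (0.972), the last another myosin heavy chain gene. The genes most like the other 7 were deb-1 (r = 0.963), which encodes vinculin of the dense bodies that anchor thin filaments, and T25F10.6 (0.928), named clik-1 in RefSeq. They also included the ribosomal protein genes rpl-21 (0.911) and rpl-2 (0.903) and the translation elongation factor gene eef-1G (0.909).

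Genes that build, anchor and excite the filaments were read from lists chosen with earlier results of these data known. Leaving out the 9, these lists held 84 tested muscle genes, and edgeR called 0 of 84 for F17 in wild type, with 11 at an unadjusted p under 0.05 (0.928% of all tested genes called, 7.60% unadjusted). DESeq2 called 1 and limma-voom 0. Of the 84 estimates, 81.0% were negative (51.7% of all tested genes) and the median log2 fold change was -0.13. Some genes of these lists varied together (tni-4, tnt-4 and tnc-2, for example), so the 84 signs are not independent of each other. In the mutant, F17 gave 0 of 84 called, 1 unadjusted, 64.3% negative and a median of -0.04, with 0 by DESeq2 and 0 by limma-voom. Of all 13795 tested genes, 424 passed unadjusted there, 52% were negative and the median was -0.01. The mutant against wild type gave 0 of 84 in both DMSO (3 unadjusted, where 575 of all 13795 genes passed) and F17 (8 unadjusted, where 2065 passed), and DESeq2 and limma-voom called 0. In DMSO 77.4% of the 84 were negative (median -0.08), against 50.8% of all genes. In F17 45.2% were negative (median 0.01), against 53.3% of all genes. The F17 comparison in wild type and the genotype comparison in DMSO share the wild type DMSO libraries.

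For F17 in wild type, 13 of 14 estimates in the dense body and attachment list were negative and 5 of 14 had an unadjusted p under 0.05, where 51.7% and 7.60% of all tested genes did. The integrin gene pat-2 stood at 138 CPM in F17 and 164 CPM in DMSO (log2 fold change -0.25, SE 0.087, edgeR adjusted p 0.398), and the kindlin gene unc-112 at -0.20 (edgeR adjusted p 0.549). All 10 calcium and excitation estimates were negative, with csq-1, for the calcium store protein calsequestrin, at -0.16 (SE 0.088) and unc-36, for a calcium channel subunit, at -0.24 (SE 0.137). The giant protein gene ttn-1 was at -0.32 (SE 0.160, edgeR adjusted p 0.684), and the myosin chaperone gene unc-45 at -0.11 (SE 0.089). The essential light chain gene mlc-3 was at -0.15 (SE 0.127). The acetylcholine receptor subunit gene unc-38 came nearest to the threshold, at 3.89 CPM in F17 and 6.15 CPM in DMSO (log2 fold change -0.66, SE 0.169, edgeR adjusted p 0.0905). DESeq2 gave unc-38 a log2 fold change of -0.63 with an adjusted p of 0.0083. With the stage score as a covariate edgeR called 1 of the 84, unc-38 (-0.67, adjusted p 0.0436), where 2.17% of all genes were called. Without the 6 libraries it called 2 of the 83 genes then tested, against 6.71% of all genes, unc-38 (-0.87, adjusted p 0.0258) and the troponin I gene tni-1 (-0.47, adjusted p 0.0207). Over all libraries the troponin list had a median of -0.06, and tni-1 was at -0.38 (edgeR adjusted p 0.554). For the mutant against wild type in F17, edgeR called 3 of 83 without the 6 libraries, against 7.55% of all genes called in that setting: the calponin-related gene cpn-1 (-0.59, adjusted p 0.00905), the troponin I gene tni-3 (-0.47, adjusted p 0.0294) and pha-4, for a transcription factor of pharynx development (0.42, adjusted p 0.0455). Among the libraries of that setting, every mutant F17 library had a higher stage score than every wild type F17 library. Genotype and stage score cannot be told apart in these calls. With the stage score as a covariate over all libraries edgeR called 1 of 84, cpn-2 (-0.62, adjusted p 0.0282), against 5.97% of all genes.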

How the data were processed

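Poly(A) RNA from whole animals was sequenced with a directional kit, per the labels' protocols; alignment with TopHat2 and counting with HTSeq are named in the submitters' processing notes, without versions or parameters. None of the sources used here gives the genome build, annotation or strand setting. The deposited table holds raw read counts per gene for 20 libraries; every column was mapped to a group by its name, while its letter (a to e) matches no replicate number in the labels.

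Counts were filtered (edgeR filterByExpr, minimum count 10), scaled by TMM and tested in 1 model of 4 group means with edgeR 4.0.16 quasi-likelihood tests (R 4.3.3). Benjamini-Hochberg adjustment ran over all 13795 genes and calls were made under 0.05. CPM is the count of a gene relative to the TMM-scaled library size, per 1000000 counts, and 95% intervals use the fit's standard error, log2 scale. Exon lengths came from the Ensembl 115 annotation of WBcel235, for gene lengths only. Ratios were tested with two-sided exact permutation tests (scipy 1.17.1). DESeq2 1.42.0, limma 3.58.1, other scalings and filters, and fits without single libraries or the 6 that stood apart were alternatives. The fit was tried on counts simulated for the wild type libraries, with the same spread for every gene and no shared component. The data differ in both respects, so that trial does not cover genes such as myo-1 and myo-2.

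Members, lists and the 6 libraries were chosen with earlier results of these data known. Genes named besides the 9 were nhr-131, up to 4 genes of each muscle list with the lowest p for F17 in wild type, and the 8 most correlated genes; others (the pharyngeal troponin genes, pat-10, tnt-3, and cpn-1, cpn-2, tni-3 and pha-4 for the mutant in F17) were named after their values were seen. Of 136 list names, 2 (cap-1 and opt-2) were not matched to a row.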

Additional observations from a re-analysis of the deposited data

Results flagged for a closer look

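In groups of 5 libraries, 1 library stood far from its 4 companions in 9 of the 56 combinations of gene, ratio or sum and group that were looked at (gap to the nearest library over 0.71 of the group's range). Chance marks about 1 in 20 where values are independent and normally distributed. The 56 are not independent, since myo-1 and myo-2 varied together (r of 0.998) and the ratios reuse the same genes. The 9 of 56 therefore cannot be set against that rate. Library c of nhr-131 DMSO held 267 CPM of myo-1 and 301 CPM of myo-2, against 36.5 to 98.4 and 36.8 to 93.8 in the rest of its group, and the lowest unc-15 to unc-54 ratio, 0.573 against 0.631 to 0.646. Library c of nhr-131 F17 held 516 CPM of myo-1 and 547 CPM of myo-2, against 65.9 to 120 and 58.6 to 126. Both are among the 6 libraries that stood apart; their part in the levels was not tested.

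The remaining values came from libraries outside the 6. The mlc-1 level of library c of wild type F17 was 674 CPM, below a narrow 705 to 717 in the group. Library a of nhr-131 DMSO held 1391 CPM of mlc-2, against 733 to 911. The myo-1 to myo-2 ratio of library a of nhr-131 F17 was 1.1, against 0.924 to 0.966. The ratio of body wall (unc-54 and myo-3) to pharyngeal (myo-1 and myo-2) heavy chains was 36.3 in library e of wild type F17, against 9.81 to 17.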

How the results depend on the processing

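No filament gene was called under any of 31 alternative settings, 20 of which left out 1 library. Of 1656 estimates of single filament genes under alternatives, 70 had the opposite sign, and the cause was not tested. The 1656 include fits without a library outside the groups compared, where an estimate can hardly move. The share of opposite signs is therefore no measure of stability. Whether the letters of the columns pair the samples was not settled: same-letter deviations correlated at -0.681 to 0.818, over 0.1 in 17 of 30 pairs. With a replicate block on the letters edgeR called 0 of 9 genes (lowest adjusted p 0.283, for myo-1 at -1.16, mutant against wild type in F17). Only the difference of the F17 effects of myo-1 (-0.49) and myo-2 (-0.41) changed sign. The planned covariate score of age genes was not run, because its gene list was not at hand; a score of 7 stage genes, chosen after the data were seen, took its place.

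Signs of the difference of the F17 effects also changed for myo-1 and myo-2 with limma-voom (-0.375 and -0.305) and without the 6 libraries (-1.028 and -0.941), for act-4 with no filter (0.012) and without the 6 (0.202), and for mlc-2 with the stage score (-0.081). For F17 in nhr-131, myo-3 was 0.001 with upper-quartile factors. For the mutant against wild type in DMSO, myo-1 was 0.074 and myo-2 0.104 without the 6. For the mutant against wild type in F17, mlc-1 was 0.026 with no filter, 0.011 with only the groups compared and 0.007 without the 6, where act-4 was 0.041; with the stage score unc-54 was 0.035, myo-1 0.031, myo-2 0.183 and lev-11 -0.059. Without the 6, the log2 ratio of unc-15 to unc-54 was -0.009 for F17 in wild type and -0.042 for the genotypes in DMSO, mlc-1 to mlc-2 was 0.024 for F17 in wild type, body wall to pharyngeal heavy chains was -0.252 for the genotypes in DMSO, and the median r among pairs of the 7 steady genes moved to 0.696.

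Leaving out 1 library at a time, log2 values that changed sign were as follows. For F17 in wild type, myo-2 ran from -0.001 to 1.117 and the ratio of unc-15 to unc-54 ran from -0.045 to 0.066. For F17 in nhr-131, unc-54 ran from -0.151 to 0.07, myo-1 ran from -0.32 to 1.248, myo-2 ran from -0.368 to 1.347, myo-3 ran from -0.057 to 0.027, mlc-2 ran from -0.143 to 0.12, lev-11 ran from -0.126 to 0.011, the ratio of unc-54 to myo-3 ran from -0.112 to 0.029, the ratio of myo-1 to myo-2 ran from -0.056 to 0.01 and the ratio of mlc-1 to mlc-2 ran from -0.029 to 0.117. For the difference of the F17 effects, myo-1 ran from -0.657 to 0.911, myo-2 ran from -0.628 to 1.087, mlc-2 ran from -0.063 to 0.21 and act-4 ran from -0.146 to 0.082. For mutant relative to wild type in DMSO, lev-11 ran from -0.113 to 0.02, act-4 ran from -0.142 to 0.086, the ratio of myo-1 to myo-2 ran from -0.035 to 0.034, the ratio of unc-15 to unc-54 ran from -0.002 to 0.088, the ratio of mlc-1 to mlc-2 ran from -0.12 to 0.033 and the ratio of body wall to pharyngeal heavy chains ran from -0.124 to 0.773. For mutant relative to wild type in F17, unc-54 ran from -0.22 to 0, mlc-1 ran from -0.037 to 0.021, act-4 ran from -0.148 to 0.041 and the ratio of unc-15 to unc-54 ran from -0.077 to 0.035. For the mean F17 effect over both genotypes, myo-2 ran from -0.054 to 0.875 and mlc-2 ran from -0.12 to 0.015. The libraries whose removal turned myo-1 or myo-2 were d of wild type F17 (F17 in wild type, myo-2 at -0.001), c of nhr-131 F17 (F17 in nhr-131, the difference and, for myo-2, the mean) and c of wild type DMSO (the difference).

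The number of all genes called moved more than the members did: for F17 in wild type from 128 to 197 with DESeq2, 906 without the 6 and 300 with the stage score; in nhr-131 from 66 to 140 without the 6 and 116 with the score; for their difference from 34 to 52, 116 and 66, to 20 with the block, and 19 to 31 without 1 library; for the genotypes in DMSO from 4 to 11, 11 and 9; for the genotypes in F17 from 177 to 537, 1019 and 823, to 107 with only the groups compared, and 83 to 449 without 1 library; for the mean F17 effect from 142 to 496 without the 6 and 309 with the score. The 7 steady genes had 4341 counts or more in every library and myo-1 and myo-2 had 388 or more.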
